A study of Homo sapiens with 8 samples.

Results

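In RH4 cells, 354 of the 3243 peaks bound by an antibody to NFYB (10.9% of the list) overlapped no peak of an antibody to NFYC by even 1 bp. They were chosen by this absence of overlap between the peak positions of the NFYB and NFYC lists, are called NFYB-only peaks here, and the other 2889 are the NFYB peaks with NFYC. In CUT&RUN an antibody guides a nuclease to a chromatin protein, and the cut fragments are sequenced; it was run on RH4 and RH30, established rhabdomyosarcoma lines labelled as PAX3-FOXO1 positive. RH4 cells were uninfected and untreated, and gave 1 NFYB and 1 NFYC library. RH30 cells (labelled seBE, d8) expressed an inducible cytosine base editor, were transduced with 1 guide RNA each, selected with blasticidin and collected 8 days after rapamycin. The guides were the controls sgCtrl1 and sgCtrl2, and sgCCAAT2a and sgCCAAT2b against the NF-Y motif of the endogenous PAX3 promoter, called edited here; each gave 1 NFYB library. The 5 libraries titled RH30 carry RH4 as their source name in the labels, and they are taken as RH30 from their titles and the protocol. With 1 library per antibody and guide there was no replicate, so shares of peaks are given with exact Clopper-Pearson 95% intervals that cover the counting of peaks only, and no p-value was computed. The depth of the RH4 libraries is unknown; the headers of the RH30 files give 13.9, 10.5, 21.2 and 28.2 M tags in the order above, and the lists hold 4025, 6687, 2451 and 2558 peaks.

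Transcription factor NF-Y is built of the subunits NFYA, NFYB and NFYC and binds the sequence CCAAT, mostly in promoters a short way upstream of the transcription start. NFYB and NFYC join through histone-fold domains, and this dimer is what NFYA needs in order to bind and to read the motif. Both antibodies thus read the same complex, and the comparison asks where the NFYB list and the NFYC list part.

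The sequences below are the 250 bases before the gene start from RefSeq (GRCh38.p14; the peak files are in hg38, the same assembly), written 5′ to 3′ on the gene's strand, with CCAAT (or ATTGG, the same motif on the other strand) and CACGTG in capitals. CACGTG, the E-box read by MYC, USF and related factors, was added after the first sequences had been seen. CDK4, the kinase of the G1 phase, has an NFYB-only peak over its promoter and 3 CACGTG but no CCAAT in these letters. TSPAN31, a tetraspanin gene beside it, also has an NFYB-only peak at its start, and 3 CCAAT in these letters.
CDK4 (chr12:57752311-57752560, minus strand): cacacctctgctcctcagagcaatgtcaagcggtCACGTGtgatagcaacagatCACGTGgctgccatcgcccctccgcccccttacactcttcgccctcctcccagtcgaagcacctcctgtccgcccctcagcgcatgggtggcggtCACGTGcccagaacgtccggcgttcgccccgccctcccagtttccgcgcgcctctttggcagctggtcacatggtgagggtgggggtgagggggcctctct
TSPAN31 (chr12:57744789-57745038, plus strand): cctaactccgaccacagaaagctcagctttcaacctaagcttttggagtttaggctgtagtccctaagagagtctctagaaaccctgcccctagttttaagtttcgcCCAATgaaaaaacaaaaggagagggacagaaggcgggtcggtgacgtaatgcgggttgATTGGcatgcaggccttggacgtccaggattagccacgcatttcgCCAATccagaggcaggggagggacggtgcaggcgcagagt
SUZ12, a subunit of the Polycomb repressive complex PRC2, and RNF169, a RING finger protein of the DNA damage response, are shown because their NFYB-only peaks were met in all 4 RH30 lists.
SUZ12 (chr17:31936757-31937006, plus strand): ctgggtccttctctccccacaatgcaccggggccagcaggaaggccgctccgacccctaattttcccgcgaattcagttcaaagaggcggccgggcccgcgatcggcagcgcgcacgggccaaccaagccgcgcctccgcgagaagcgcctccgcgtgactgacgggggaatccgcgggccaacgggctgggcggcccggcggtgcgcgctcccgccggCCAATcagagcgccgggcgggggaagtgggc
RNF169 (chr11:74748599-74748848, plus strand): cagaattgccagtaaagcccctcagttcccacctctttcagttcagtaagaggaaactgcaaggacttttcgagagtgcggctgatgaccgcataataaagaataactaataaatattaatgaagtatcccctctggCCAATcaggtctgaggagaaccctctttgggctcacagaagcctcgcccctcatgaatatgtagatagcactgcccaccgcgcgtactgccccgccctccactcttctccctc
RPS19, a protein of the small ribosomal subunit, is shown as a promoter with an NFYB-only peak, neither motif and no RH30 peak. CKM, the muscle creatine kinase, is shown because its NFYB-only peak lies at the far end of the gene and not here.
RPS19 (chr19:41860005-41860254, plus strand): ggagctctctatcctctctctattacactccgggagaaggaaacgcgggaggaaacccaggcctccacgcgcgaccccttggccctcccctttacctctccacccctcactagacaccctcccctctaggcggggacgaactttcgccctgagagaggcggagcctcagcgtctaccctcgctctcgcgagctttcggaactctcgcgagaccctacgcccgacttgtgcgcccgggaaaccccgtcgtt
CKM (chr19:45322876-45323125, minus strand): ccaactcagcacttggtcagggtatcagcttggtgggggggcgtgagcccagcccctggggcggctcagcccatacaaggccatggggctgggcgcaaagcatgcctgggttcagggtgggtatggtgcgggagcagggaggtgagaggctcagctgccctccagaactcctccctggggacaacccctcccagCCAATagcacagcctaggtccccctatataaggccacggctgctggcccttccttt
Peaks were set against these letters by position. In TSPAN31 the first bases of the 3 CCAAT lie 143, 85 and 40 bp upstream of the start; the last 2 are under the RH4 peak and all 3 are under the peaks of all 4 RH30 libraries. The CCAAT of SUZ12, 31 bp upstream, is outside the RH4 peak, which lies past the start, but under all 4 RH30 peaks. The CCAAT of RNF169, 113 bp upstream, is under the RH4 peak and under 3 of the 4 RH30 peaks.

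NFYB-only peaks were narrow. Their median width was 234 bp (quartiles 210 and 282.75; range 210 to 525), against 424 bp (quartiles 348 and 491; up to 1235) for NFYB peaks with NFYC. The narrowest width in the list, 210 bp, was held by 92 NFYB-only peaks (26%) and by 73 of the others (2.53%). Of the 811 peaks in the narrowest width quartile (210 to 304 bp) 34.6% were NFYB-only, and the share was 6.65%, 1.85% and 0.494% in the following quartiles. A narrow interval has fewer bases with which to meet an NFYC peak, so width is not independent of the rule and is a description. How much of the narrow width this accounts for was not tested, and 310 of 354 had no NFYC peak within 10 kb. Because the widths differ, the main shares in RH30, at gene ends, around starts and with a motif are also given within the narrowest quartile. Values without such a figure beside them are not matched for width. The files hold no peak heights, so how strong an NFYB-only peak is could not be read.

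**Figure D1:**
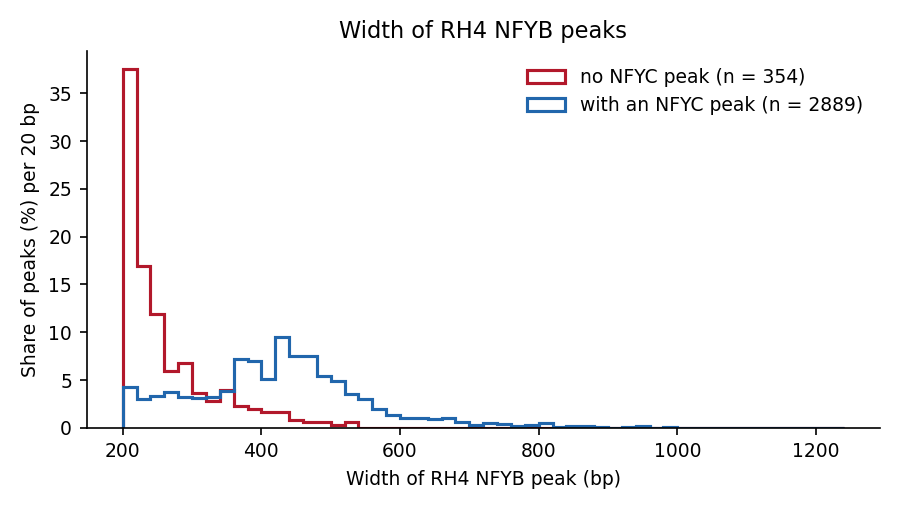
Width of RH4 NFYB peaks in bp (horizontal) against the share of peaks in percent per 20 bp (vertical), for the 354 NFYB-only peaks and the 2889 peaks with an NFYC peak. The NFYB-only peaks pile up at the least width of 210 bp, with a median of 234 bp against 424 bp.

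Most NFYB-only peaks were far from any NFYC peak, and few had one that just failed to touch. The median gap to the nearest NFYC peak was 150038 bp (quartiles 32134.5 and 459423), and 310 of 354 (87.6%) had none within 10 kb. A gap under 500 bp was found for 26 (7.34%). Just inside the rule were peaks at MAN2A1 (a Golgi mannosidase; gap 4 bp), CAPZB (a subunit of the actin capping protein; 9 bp), inside SIPA1L3 (13 bp), and at CLPTM1 (13 bp) and ACTR3B (an actin-related protein of the Arp2/3 family; 20 bp). Just outside it were peaks at ELOVL1 (a fatty acid elongase; overlap 3 bp), LRIG2 (6 bp), PDZD8 (8 bp) and ZNF491 (10 bp), and near ARAP1 (13 bp). All 10 were 210 to 277 bp wide. No NFYB-only peak overlapped an entry of the authors' RH4 consensus list of 3073 regions. That list is named as a consensus of NFYB and NFYC, so this absence would follow from the rule and is no separate result.

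NFYB-only peaks were found in the RH30 lists less often than the other RH4 NFYB peaks, counted over peaks. An overlapping RH30 peak in at least 1 of the 4 libraries was present for 157 of 354 (44.4%; interval 39.1 to 49.7), against 87.0% (85.7 to 88.2) of NFYB peaks with NFYC and 82.4% of the whole list. By library the NFYB-only shares were 28.0% in sgCtrl1 (99 peaks; 71.3% of the whole list), 38.1% in sgCtrl2 (135 peaks; 73.8%), 9.04% in sgCCAAT2a (32 peaks; 54.2%) and 8.47% in sgCCAAT2b (30 peaks; 56.2%). The corresponding shares of the peaks with NFYC were 76.6%, 78.1%, 59.7% and 62.1%. In each of the 4 libraries the NFYB-only interval lay wholly below that of the peaks with NFYC. An RH30 peak in all 4 libraries was met by 13 NFYB-only peaks (3.67%; 1.97 to 6.2), against 50.4% of the others and 45.3% of the list.

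Width moved with this difference, and a difference remained between peaks of like width. Within the narrowest quartile, 41.6% (35.8 to 47.6) of NFYB-only peaks and 71.1% (67.1 to 75) of peaks with NFYC had an RH30 peak in any library, and at the least width of 210 bp the shares were 30.4% (21.3 to 40.9, n = 92) and 67.1% (55.1 to 77.7, n = 73). When the peaks with NFYC were weighted to the NFYB-only mix of width quartiles, their shares became 74.4% in any library, 58.7% in sgCtrl1, 63.9% in sgCtrl2, 32.4% in sgCCAAT2a and 35.4% in sgCCAAT2b. These remained above the NFYB-only shares in each library. Few of the unmatched NFYB-only peaks lay just beside an RH30 peak: 13 were within 500 bp of one in sgCtrl1, 11 in sgCtrl2 and 5 in each edited library, while 233, 191, 307 and 307 had none within 10 kb. The share of NFYB-only peaks in RH30 was 44.1% at gene ends (38 to 50.3, n = 263) and 45.1% away from them (34.6 to 55.8, n = 91).

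**Figure D2:**
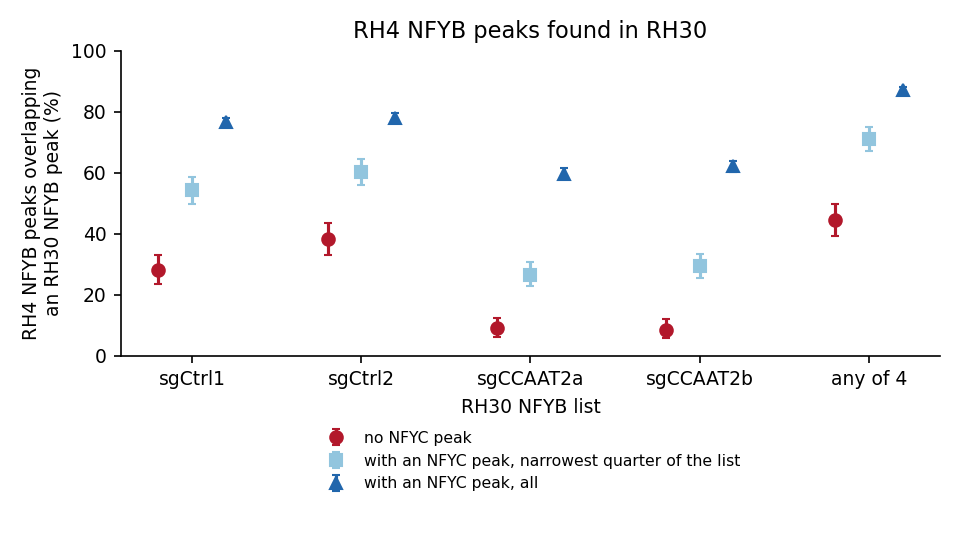
Share in percent (vertical) of RH4 NFYB peaks that overlap a peak of each RH30 NFYB list or of any of the 4 (horizontal), with exact Clopper-Pearson 95% intervals, for NFYB-only peaks (n = 354), peaks with NFYC in the narrowest quartile of width, and all peaks with NFYC (n = 2889). The NFYB-only points are the lowest in each list, from 8.47% in sgCCAAT2b to 38.1% in sgCtrl2.

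The NFYB-only peaks seen in RH30 were mostly seen in the control libraries. Of the 157, 53 met a peak of sgCtrl2 alone, 49 of both controls and neither edited library, and 12 of sgCtrl1 alone. Both controls held a peak at 79 NFYB-only peaks (22.3%; 64.7% of the whole list). Among these 79, an edited peak was absent from both edited libraries at 49 (62.0%; 50.4 to 72.7) and present in both at 13 (16.5%). Among the 2018 peaks with NFYC in both controls the shares were 16.4% and 72.2%. In the narrowest quartile the share with neither edited peak was 61.7% (48.2 to 73.9, n = 60) against 44.3% (37.8 to 50.9, n = 235), so the intervals met there. The edited libraries have more tags and fewer called peaks than the controls, and the part of depth and of peak calling in this pattern was not tested. A pair of NFYB-only peaks, named here after their values were seen, met an edited peak and no control peak: near EIF4E3 in sgCCAAT2a and at IGBP1 in sgCCAAT2b. Each is 0.282% of the NFYB-only peaks. Among peaks with NFYC, 1.04% met sgCCAAT2a alone, 0.45% sgCCAAT2b alone and 0.658% both edited libraries without a control.

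The RH30 peaks that NFYB-only peaks met stood later in the deposited files, where place stood in for rank because no heights are given. In the sgCtrl2 file their median place was 34.0% down the list, against 18.0% for those met by peaks with NFYC; in sgCtrl1 it was 58.6% against 28.6%, in sgCCAAT2a 80.1% against 38.9% and in sgCCAAT2b 79.7% against 38.4%. At a like place in sgCtrl2 (20 to 30% down, peaks also in sgCtrl1), 5 of 14 NFYB-only peaks (35.7%; 12.8 to 64.9) and 69.6% (65 to 73.9) of the others had an edited peak. From 30 to 40% down the counts were 12 of 34 (35.3%; 19.7 to 53.5) against 60.9% (54.5 to 67.1). In the first 20% they were 6 of 10 (60%; 26.2 to 87.8) against 93.3% (91.7 to 94.6). Past 40% they were 6 of 19 (31.6%; 12.6 to 56.6) against 76.1% (68 to 83.1). The share of the others thus did not fall steadily with place, which limits place as a stand-in for rank. In the authors' deposited tables of peaks higher in sgCtrl2, the 135 sgCtrl2 peaks on NFYB-only peaks were listed over sgCCAAT2a in 64.4% (61.9% of all sgCtrl2 peaks) and over sgCCAAT2b in 68.1% (60.7% of all). They were listed over sgCtrl1, the other control, in 9.63% (5.23 to 15.9; 36.2% of all). In the same deposited tables, the shares for the sgCtrl2 peaks on peaks with NFYC were 43.4%, 34.7% and 1.46% (1.01 to 2.04), each below the NFYB-only share, the comparison between controls included.

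NFYB-only peaks lay mostly at gene starts, and their shares at gene ends and at starts had intervals that met those of the other peaks. A protein-coding gene end lay within 1000 bp of 263 of 354 (74.3%; 69.4 to 78.8), against 77.6% (76 to 79.1) of peaks with NFYC and 77.2% of the list. In the narrowest quartile these shares were 73.7% (68.1 to 78.7) and 70.2% (66.1 to 74.1). A finer sorting also used the alternative starts of the RefSeq promoter table, some of which lie inside genes, so that 29 peaks away from a gene end count there as at a start. By this sorting 252 (71.2%) lay at a gene start, 4 (1.13%) at a 3′ end, 36 (10.2%) at an end whose strand was not known, 23 (6.5%) inside a gene and 39 (11%; 7.95 to 14.8) outside genes. For peaks with NFYC the shares at gene starts and outside genes were 72.9% and 9.42%. Overlap with the body of a protein-coding gene, ends included, was less frequent for NFYB-only peaks. It was 65.3% (60 to 70.2) against 80.3% (78.8 to 81.7), with intervals apart and no matching for width. The end of a long noncoding RNA gene lay within 1000 bp of 24.9% (20.4 to 29.7) of NFYB-only peaks and 22.3% (20.8 to 23.8) of the others.

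The place within the promoter differed, most clearly in the stretch just upstream of the start. Among peaks centred within 1000 bp of a start, the centres of the NFYB-only peaks lay upstream in 157 of 247 (63.6%; 57.2 to 69.6) and those of the peaks with NFYC in 86.3% (84.8 to 87.8). The stretch from 150 bp upstream to the start, where NF-Y motifs mostly sit, held 25.9% (20.6 to 31.8) of NFYB-only centres and 56.6% (54.5 to 58.8) of the others. On either side of it lay 27.5% (22.1 to 33.6) of NFYB-only centres at 150 to 250 bp upstream and 27.5% within 150 bp past the start, against 19.4% and 9.33%. In the narrowest quartile the middle stretch held 21.5% (16 to 28) against 36.9% (31.7 to 42.4), with intervals apart. The other differences shrank there and their intervals met: 29.2% (23 to 36.2) against 22.8% (18.3 to 27.7) at 150 to 250 bp upstream, 31.3% (24.8 to 38.3) against 24.9% (20.3 to 30) past the start, and 60.5% (53.3 to 67.4) against 70.2% (64.9 to 75.1) for all upstream centres.

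**Figure D3:**
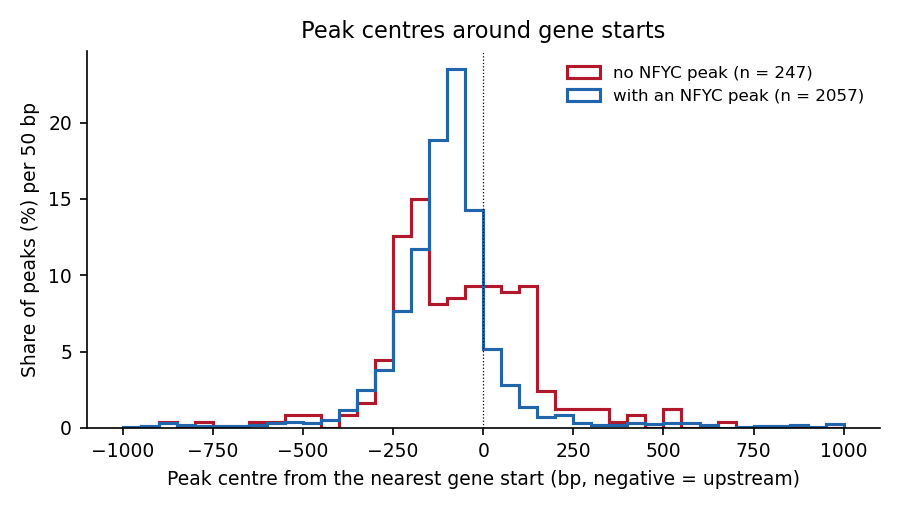
Distance in bp from the peak centre to the nearest known gene start (horizontal; negative is upstream) against the share of peaks in percent per 50 bp (vertical), for NFYB-only peaks (n = 247) and peaks with NFYC (n = 2057). The peaks with NFYC are fullest at 100 to 50 bp upstream, while the NFYB-only peaks are fullest at 200 to 150 bp upstream and have a further shoulder past the start.

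Promoter windows under NFYB-only peaks carried the NF-Y motif less often. RefSeq promoter windows run from 250 bp before to 50 bp after a start, and 224 of the 354 NFYB-only peaks lay over one. CCAAT on either strand was in the window of 121 of them (54.0%; 47.3 to 60.7), against 89.2% (87.7 to 90.5; n = 1964) for peaks with NFYC, 76.6% (71.4 to 81.3; n = 299) for those of the narrowest quartile and 34.7% of all 22078 windows. The NFYB-only value for the narrowest quartile was 52.0% (44.4 to 59.5; n = 179). At least 2 CCAAT were in 12.1% of NFYB-only windows, close to the 11.4% of all windows, and in 54.8% of those with NFYC. Counting only ACCAAT and GCCAAT, the form with a purine before the core, the shares were 42.0%, 77.9% and 23% in the order NFYB-only, with NFYC, all windows.

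NFYB-only peaks with an RH30 peak carried the motif more often than those without one, and so did the peaks with NFYC. For peaks with NFYC the shares were 90.8% (89.4 to 92.1; n = 1745) with an RH30 peak and 76.3% (70.1 to 81.7; n = 219) without. CCAAT was in the window of 68.5% (58.9 to 77.1; n = 108) of NFYB-only peaks met in RH30 and of 40.5% (31.5 to 50; n = 116) of those not met. The latter interval includes the level of all windows, which count those under NFYB peaks too. It lies above the 27.9% (27.3 to 28.5) of windows with no RH4 NFYB peak. Under the part of the peak inside the window, CCAAT was found for 38.8% of NFYB-only peaks (32.4 to 45.6), against 61.5% (55.8 to 67.1) of narrow peaks with NFYC. Bases of a peak outside the window could not be searched. The median number of positions covered was 172 for NFYB-only peaks and 187 for narrow peaks with NFYC. The motif was not concentrated at the centre of NFYB-only peaks: per 1000 positions there were 2.66 within 25 bp of the centre, 1.9 at 25 to 50 bp, 2.96 at 50 to 75 bp and 2.72 at 75 to 105 bp. Peaks with NFYC went from 12.4 at the centre to 5.00 at 75 to 105 bp, and all windows held 1.74. The narrow peaks with NFYC ran the other way, from 2.95 at the centre to 5.69.

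**Figure D4:**
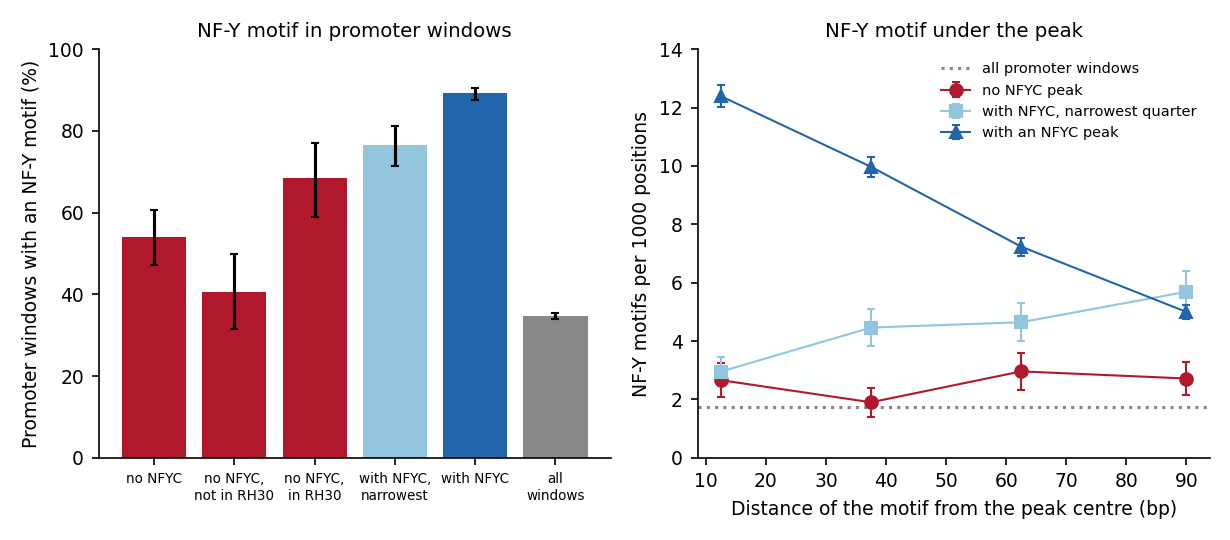
Left, share in percent of promoter windows that hold CCAAT for NFYB-only peaks (all, and split by an RH30 peak), peaks with NFYC in the narrowest quartile of width, all peaks with NFYC, and all windows; bars start at 0 and lines are exact Clopper-Pearson 95% intervals. Right, CCAAT per 1000 positions by distance from the peak centre in bp, with the square root of the motif count as error. The NFYB-only bar of peaks not in RH30 stands at 40.5%, near the 34.7% of all windows. It is above the 27.9% of windows with no RH4 NFYB peak, which are not drawn. The NFYB-only line lies between 1.9 and 2.96 per 1000 positions.

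Other promoter motifs, chosen after the first sequences had been seen, were counted in the same windows on both strands without regard to overlap. CACGTG was in 15.6% (11.1 to 21.1) of NFYB-only windows, 10.5% (9.22 to 12) of those with NFYC and 8.32% of all. TGACGTCA, the CREB and ATF site, was in 6.70%, 3.46% and 2.25%. CCGGAAG, the core of ETS factors, was in 20.1%, 18.0% and 12.8%, and GGGCGG, the GC box of SP factors, in 74.6%, 82.9% and 56.3%. At like width these differences were smaller for all but the GC box. In the narrowest quartile CACGTG was in 15.1% (10.2 to 21.2) of NFYB-only windows and 12.4% (8.86 to 16.7) of those with NFYC, TGACGTCA in 7.26% and 7.02%, CCGGAAG in 21.2% and 21.1%, and GGGCGG in 73.2% (66.1 to 79.5) and 82.9% (78.2 to 87). The intervals met for each of the 4 motifs. Where the window had no CCAAT, the E-box was in 23.3% (15.5 to 32.7; n = 103) of NFYB-only and 12.3% (8.17 to 17.5; n = 212) of the others, intervals that met. CCGGAAG was in 29.1% (20.6 to 38.9) and 17.5% (12.6 to 23.2), which also met. A match is a description of the letters and not evidence of a bound factor.

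CDK4 and TSPAN31, which overlap at their 3′ ends, each had an NFYB-only peak at the start. CDK4's was at chr12:57752307-57752668 (362 bp), well above the median width, and 58169 bp from the nearest NFYC peak. In RH30 both controls had a peak there, chr12:57752477-57752665 in sgCtrl1 (place 266 of 4025) and chr12:57752458-57752654 in sgCtrl2 (place 199 of 6687), and neither edited library did. The authors' deposited tables list the sgCtrl2 peak over sgCCAAT2a and over sgCCAAT2b, and not over sgCtrl1. All 3 CACGTG of the printed promoter, whose first bases lie 216, 196 and 101 bp upstream, are under the RH4 peak, and the first 2 are under both RH30 control peaks. The TSPAN31 peak, chr12:57744926-57745173 (248 bp), was 50788 bp from an NFYC peak and was met in all 4 RH30 lists, edited libraries included. The nearest NFYC peaks on either side, at OS9 and CTDSP2, each overlapped an RH4 NFYB peak that was met in all 4 RH30 lists, although the sgCtrl2 peak at CTDSP2 met the NFYB peak and not the NFYC peak.

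**Figure D5:**
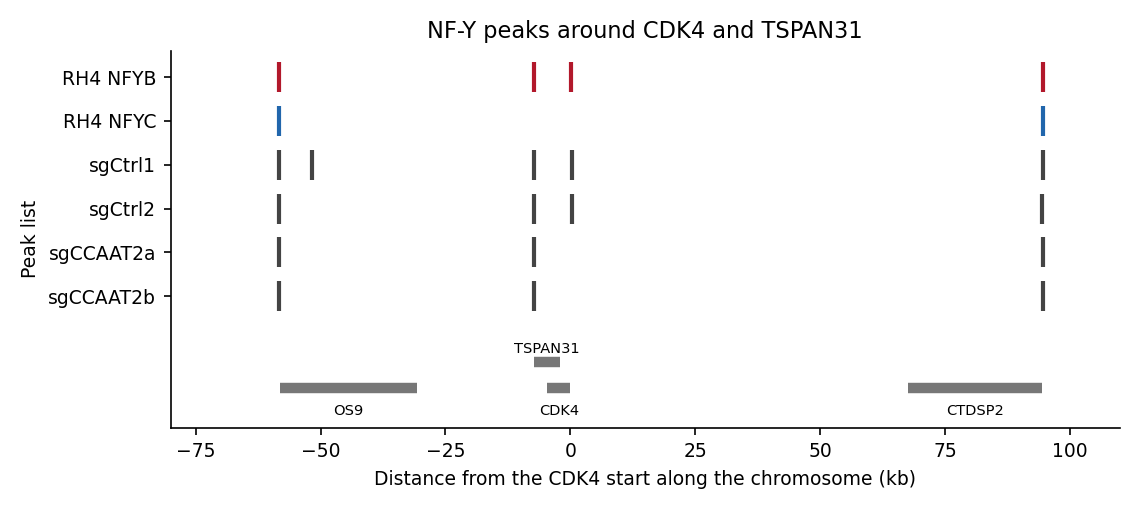
Peaks of the 2 RH4 lists and the 4 RH30 NFYB lists (rows) by distance in kb from the CDK4 start along the chromosome (horizontal), with the genes OS9, TSPAN31, CDK4 and CTDSP2 as bars; ticks mark peak centres and are not drawn to width. The NFYC row has 2 ticks, at OS9 and CTDSP2, and the CDK4 start has ticks in RH4 NFYB, sgCtrl1 and sgCtrl2 and none in the edited libraries.

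CKM, which encodes the creatine kinase of contracting muscle, differed from CDK4 in the place of its peak. The gene lies at chr19:45306413-45322875 on the minus strand, and the NFYB-only peak at chr19:45306474-45306687 (214 bp) was at its 3′ end, 16294 bp from the start. It met no RH30 list, and the nearest NFYC peak was 5542 bp away. No peak of the 6 lists lay within 1000 bp of the CKM start, although its promoter holds a CCAAT 56 bp upstream. In the list of 35 muscle contraction and energy genes, CKM alone had an NFYB-only peak at an end and 3 genes had any NFYB peak. Among 23 muscle regulators the counts were 0 and 5, and among 20 PAX3-FOXO1 targets 0 and 4. Over all 20037 protein-coding genes, 324 (1.62%) had an NFYB-only peak at an end, which is 10.8% of the 3011 genes with any NFYB peak.

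The other gene lists held 0 to 3 genes with an NFYB-only peak each, to be read beside the 1.62% of all genes and the 10.8% of genes with an NFYB peak. Among 27 listed genes of 12q13-q15, 6 had an NFYB peak at an end and 2 (7.41%) an NFYB-only one. These were the neighbours CDK4 and TSPAN31, and CDK4 is also in the cell cycle list. Of 32 cell cycle genes, 21 had an NFYB peak at an end and 2 (6.25% of the list) an NFYB-only one, CDK4 and CDKN2C, which encodes an inhibitor of CDK4 and CDK6. The CDKN2C peak, chr1:50960042-50960299 (258 bp), is shared with FAF1 and met RH30 sgCtrl2 only, where the authors' deposited tables list it over both edited libraries and over sgCtrl1. Among 20 ER folding genes, 18 had an NFYB peak and 1 (5%) an NFYB-only one: PDIA3, a protein disulfide isomerase, with a peak of 268 bp that stood 64 bp from an NFYC peak and met sgCtrl1, sgCtrl2 and sgCCAAT2a. Among 78 cytosolic ribosomal protein genes, 18 had an NFYB peak and 3 (3.85%) an NFYB-only one. These were RPS19 and RPL35A, with no RH30 peak, and RPL18, which shares its peak with SPHK2 and met both controls; all 3 peaks were 210 bp wide. None of 20 cholesterol and fatty acid genes (13 with an NFYB peak) and none of 8 genes of NF-Y and its partners (7 with one) had an NFYB-only peak at an end. Blood cell markers (12 genes) and liver cell markers (10 genes) had no NFYB peak at an end.

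The widest NFYB-only peaks at gene ends were a mixed group. HOXC9, a homeobox gene, had the widest (525 bp) and was met in all 4 RH30 lists. SCYL3 (521 bp), a pseudokinase gene, and SYS1 (464 bp), a Golgi trafficking gene, had no RH30 peak, as was so for JAK2 (446 bp), the cytokine receptor kinase, and VPS37C (427 bp), a subunit of ESCRT-I. PLCG1 (512 bp), a phospholipase C, met sgCtrl1 and sgCCAAT2b, and the peak shared by KIAA1328 and TPGS2 (488 bp) met 3 lists. FUZ (443 bp), a gene of planar cell polarity and cilia, met sgCtrl1 alone. MPC2 (432 bp), of the mitochondrial pyruvate carrier, and the peak shared by PCSK7 and RNF214 (429 bp) met both controls. So 4 of these 10 wide peaks had no RH30 peak.

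The 13 NFYB-only peaks in all 4 RH30 lists were not wide as a group, running from 210 to 525 bp. At gene ends they were HOXC9, ECH1 (a peroxisomal and mitochondrial isomerase of fatty acid oxidation; 336 bp), the promoter shared by IK and NDUFA2 at the 3′ end of TMCO6 (294 bp), SUZ12 (281 bp), FANCC (a Fanconi anaemia core complex gene; 251 bp), TSPAN31, BTN3A1 (a butyrophilin; 232 bp) and RNF169 (210 bp). Away from gene ends they were near ENAH (429 bp), inside IL12RB1 (262 bp), and near GRK3 (212 bp), DTNB (210 bp) and CEBPB (210 bp). The RH30 peaks at these 13 sites stood at places 707 to 2541 of 4025 in sgCtrl1, apart from TSPAN31 at place 493. The sgCtrl2 peaks at SUZ12 and near CEBPB are listed over both edited libraries in the authors' deposited tables, although a called peak was present there in each edited library.

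Away from gene ends lay 91 NFYB-only peaks, 29 of them at an alternative start and 62 at neither. The widest were near SPEN (480 bp; 12839 bp from the gene of a transcriptional repressor), which met sgCtrl2 alone, and within PACRGL (464 bp), 84 bp upstream of a start inside that gene, with no RH30 peak. Next were a peak at a start of ZNF324B (449 bp; met by sgCtrl2), the one near ENAH (429 bp; all 4 lists) and one 2827 bp from TRIB3, a pseudokinase of the stress response (421 bp; no RH30 peak). An edited-library peak was met by 16.5% of them (9.53 to 25.7) against 6.46% (3.81 to 10.1) at gene ends in sgCCAAT2a, and by 15.4% (8.67 to 24.5) against 6.08% (3.52 to 9.69) in sgCCAAT2b, with intervals that met.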

How the data were processed

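The values are peak positions in bp from the authors' deposited files in hg38, which hold no peak heights. RH30 peaks come from HOMER findPeaks, run on each library, per the file headers, and the differential tables are sgCtrl2 peaks higher by a fold of 2.5 at a Poisson p of 0.001. For RH4 the peak caller is not known here. The RH4 entries carry a further set of coordinates, which gave the same 354 peaks.

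Peaks were shared at an overlap of 1 bp. Gene ends were those of 20037 protein-coding genes of RefSeq GRCh38.p14, with a window of 1000 bp; strand and 22078 promoter windows, for 15743 of the genes, came from the RefSeq promoter table. Overlap counts were compared with bedtools 2.31.1 on simulated lists; intervals used scipy 1.17.1. The members and gene lists were chosen with earlier results of these data known. Named were CDK4 and CKM, NFYB-only members of the 11 lists, the 10 widest peaks at gene ends and 5 away, those in all 4 RH30 lists, the 5 nearest each side of the rule, and runs of at least 3 within 500 kb. Alternatives were other windows and overlaps, the wider 50% of the peaks, chromosomes only, a gap of 500 bp and other motif definitions. The IgG libraries were not analysed here.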

Additional observations from a re-analysis of the deposited data

How the results depend on the processing

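Across 9 results and 34 alternatives, 23 values stayed within a set limit and 11 moved further. The limit was the 95% interval of the main value, except for the number of peaks, where it was a set fold. The number of NFYB-only peaks, 354, became 1501 when an overlap had to cover 50% of both the NFYB and the NFYC peak. A narrow peak lying wholly inside a wide one can fail this rule. The median width was 411 bp in the RH4 NFYB list and 190.5 bp in the NFYC list. In sgCtrl1, sgCtrl2, sgCCAAT2a and sgCCAAT2b it was 189, 197, 153 and 163 bp. With an overlap of 50% of both peaks, the NFYB-only share in RH30 fell to 17.2% in sgCtrl1, 27.1% in sgCtrl2, 4.8% in sgCCAAT2a, 2.54% in sgCCAAT2b and 33.1% in any list. The wider 50% of the NFYB-only peaks gave 34.3% in sgCtrl1, 47.4% in sgCtrl2 and 54.3% in any list. The share of promoter windows with CCAAT, 54.0%, was 42.0% for ACCAAT or GCCAAT and 38.8% under the part of the peak inside the window, the latter chosen after seeing the data. The cause of these moves was not tested. No paired analysis was possible because each antibody and guide has 1 library, and no replicate could be left out for the same reason. RH4 depth and peak heights are unknown, so whether NFYC signal below a called peak exists at these sites was not analysed here.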

Other observations

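The NFYB-only share of RH4 NFYB peaks varied between chromosomes. The highest and lowest shares are given here, chosen after the values were seen, and the intervals do not allow for that choice. They made up 9 of 26 RH4 NFYB peaks on chromosome 18 (34.6%; exact interval 17.2 to 55.7), 21 of 107 on chromosome 5 (19.6%; 12.6 to 28.4) and 19 of 99 on chromosome 20 (19.2%; 12 to 28.3), against 10.9% of the list. On chromosome 15 they were 3 of 86 (3.49%; 0.725 to 9.86) and on chromosome 6 they were 4 of 94 (4.26%; 1.17 to 10.5). Chromosome 19, with 448 NFYB peaks, had 40 (8.93%).

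Another NFYB-only peak lay within 500 kb of 104 of the 354 (29.4%), and 9 runs of at least 3 held 30 peaks (8.47%). No like count was made for the other NFYB peaks, so these values do not show that NFYB-only peaks cluster. The run with the most members, 5 of the 14 NFYB peaks in its span at chr19:17475739-18429353, lay near SLC27A1 (a fatty acid transporter), KCNN1 (a potassium channel), IL12RB1 (a cytokine receptor chain), MAST3 with PIK3R2, and SSBP4. The CKM peak is in another on the same chromosome, at chr19:44955010-45886805 (4 of 16), with CLPTM1, the shared ends of ERCC1, POLR1G and PPP1R13L, and IRF2BP1. A further chromosome 19 run had 3 of 8. Its peaks were at the starts of GRWD1 (3′ end of GRIN2D) and IZUMO1 (3′ end of FUT1), and at RPL18 with SPHK2. In a run of 172 kb on chromosome 5, a pair of peaks at a start of TNIP1 and a peak at GM2A were the only 3 NFYB peaks. All 3 had an RH30 peak. The TNIP1 pair lies side by side (chr5:151080811-151081065 and chr5:151081095-151081323), and counted as 1 site it would leave this run short of 3 members. In a further chromosome 5 run, all 3 NFYB peaks were NFYB-only and 1 had an RH30 peak. They were at IK with NDUFA2, at the start of ZMAT2 (3′ end of HARS2) and near PCDHB1.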
